A study of Xenopus laevis with 4 samples.

Results

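Untreated posterior explants of the frog *Xenopus laevis*, cut from tailbuds at stage 26, are described here by the genes and tissue markers that make up their RNA. They are the 2 control libraries of a series of 4, chosen by their treatment label alone. The other 2 libraries came from explants kept with 0.5 mM picrotoxin, a blocker of GABA-A receptor chloride channels, and are not analysed here. Embryos were cut across the body axis behind the otic vesicle, the posterior piece was kept for 3 h, and its ventral yolk was then taken off. Each library was made from the pooled explants of 3 embryos, and the labels call the pools biological replicates. Whether the pools came from different clutches, and whether the controls received a vehicle, is not given. No strain or transgene is named for the embryos.

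A stage 26 embryo is an early tailbud. Its trunk holds segmented somites that already contain contractile muscle, a notochord, a closed neural tube with the first neurons, and an epidermis in which mucus-secreting, ion-transporting and multiciliated cells are interspersed. At the posterior end the tailbud still adds new axial tissue, and Hox genes give cells along the trunk and tail their position on the head-to-tail axis. *Xenopus laevis* is allotetraploid: most chromosomes exist as a long (L) and a short (S) version inherited from different ancestral species, and many genes therefore have an L and an S copy, called homeologs.

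Sequencing depth was 18164780 estimated counts for control replicate 1 and 20660792 for control replicate 2, of which 11258725 and 12472733 fell outside ribosomal RNA gene models. All levels are given as CPM, counts per 1000000 counts outside ribosomal RNA, with the L and S copies of a gene added unless a copy is named. CPM is not divided by transcript length, because no transcript lengths were used here, so a long transcript collects more counts than a short one at the same number of molecules. Genes are therefore listed by their counts and are not ranked by how many molecules they make. With 1 group there was no test, and each value is given for both libraries or as a mean ± SD (n = 2). A count of 0 allows up to 3 counts in a library, which is 0.266 CPM in control replicate 1 and 0.241 CPM in control replicate 2.

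Of 39128 gene models outside ribosomal RNA, 25419 had a mean of at least 1 CPM, 14579 at least 10 CPM, 1748 at least 100 CPM and 61 at least 1000 CPM. No count fell on 4397 models in either library. The counts were spread over many genes: 1424 genes in control replicate 1 and 1483 genes in control replicate 2 held 50% of the counts. The 100 gene models with the most counts held 18.8% and 18.3%, and the top 10 held 6.39% and 6.40%. Protein-coding models took 98.1% of the counts in both libraries and long noncoding RNA models 1.70% and 1.64%. Models that carry only a locus number in place of a gene name took 14.4% and 14.3%.

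The genes with the most counts were a mixture of keratins, muscle proteins, translation factors and general RNA-binding and chaperone proteins. The keratin gene krt7 stood first, with 13819 and 13153 CPM in control replicates 1 and 2. It was followed by ccdc50 (11684 and 13646 CPM) and by aifm2, which codes for a membrane oxidoreductase that protects cells from lipid peroxidation (12550 and 12598 CPM). Each of these 2 genes owed its place to a single copy with a single annotated transcript: ccdc50.L had 11677 and 13640 CPM against 6.66 and 5.61 CPM for ccdc50.S, and aifm2.S had 12537 and 12583 CPM against 12.9 and 14.5 CPM for aifm2.L. Whether these counts belong to the genes named was not tested.

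Elongation factor eef1a1, which brings aminoacyl-tRNA to the ribosome, had 8572 and 8378 CPM, and eef2.1, which moves the ribosome along the message, had 3862 and 3867 CPM. The cold-inducible RNA-binding protein gene cirbp had 6320 and 6046 CPM, the nucleolar protein gene ncl 3206 and 3203 CPM, and the Y-box RNA-binding protein gene ybx1 2721 and 2611 CPM. Chaperones followed, with hspa1l, for which RefSeq gives hsc70 as an older name, at 5369 and 4984 CPM, hspa8 at 2422 and 2437 CPM and hsp90ab1 at 2247 and 2394 CPM. The cytoplasmic actin genes actb and actg1 had 4109 and 4046 CPM and 2624 and 2557 CPM. The chromatin protein gene hmgn1 had 2247 and 2103 CPM, and the poly(A)-binding protein gene pabpc1 2111 and 2365 CPM. These are genes that most cells use, so they name no tissue.

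Tissue genes in the same range belonged to the muscle, keratin and mucous cell groups. They do not show which tissues made up most of the piece, since counts of a gene also rise with transcript length. Muscle gave 5 of the top 30 genes, among them the fast myosin heavy chain gene myh4 (4577 and 3764 CPM), the calcium pump gene atp2a1 (2958 and 3048 CPM) and the muscle creatine kinase gene ckm (3217 and 2558 CPM). Keratins gave 4 of the 30. Mucus-secreting cells of the skin gave 2, the intelectin gene itln1, a secreted epidermal lectin in *Xenopus* (2937 and 2772 CPM), and the mucin-like gene otogl2 (2620 and 2353 CPM). The top 30 held 13.2% and 12.8% of the counts. They include 5 models with only a locus number, of which LOC108701391 had 3573 and 3910 CPM and the noncoding LOC121402969 had 3219 and 2414 CPM, and they include 0 ribosomal protein genes.

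**Figure D1:**
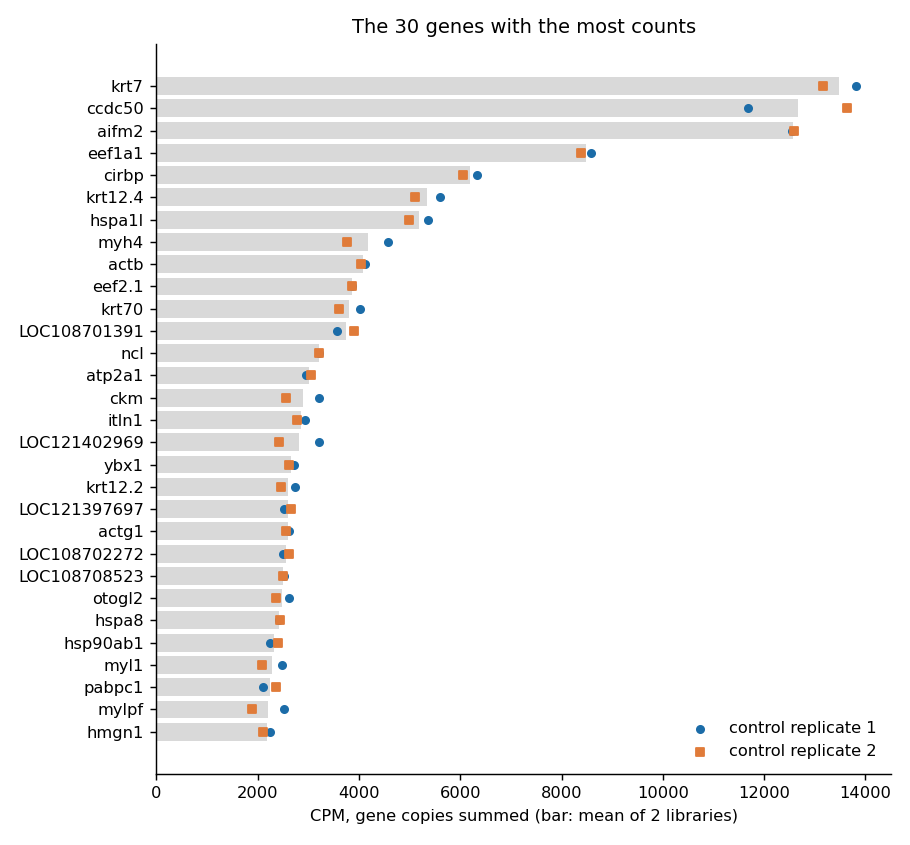
CPM (x axis, L and S copies summed) of the 30 genes with the most counts, 1 per line; the bar is the mean of the 2 control libraries, and the blue circle and orange square are control replicates 1 and 2. The libraries lie close together for most genes, while ccdc50, myh4 and LOC121402969 have the largest SDs among the genes drawn.

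The tissue label was first set beside 3 sets of marker genes: tissues that a trunk and tail piece should hold, tissues in front of the cut, and ventral tissues. Genes were chosen with earlier results of these data known, so these sets describe the piece and are no independent check of its label. All 26 trunk and tail markers that matched a gene by symbol had at least 1 CPM and 25 had at least 10 CPM, where 62.1% of all genes with copies summed reached 1 CPM and 36.6% reached 10 CPM. Their median was 40.1 CPM, and the lowest was the tail-end Hox gene hoxa13 with 6.13 and 6.81 CPM. The symbols noto and tyr matched no gene, and not, a notochord gene of *Xenopus* that was looked up after the values were seen, had 4.62 and 4.65 CPM.

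Of 12 markers of the head in front of the otic vesicle, 7 had at least 1 CPM, a share close to the 62.1% of all genes, and 1 had at least 10 CPM, where 36.6% of all genes did. Their median was 1.98 CPM. The forebrain and midbrain gene otx2 had 0.355 and 0.241 CPM in control replicates 1 and 2, and the midbrain gene en2 0.0888 and 0.481 CPM. These are counts of 1 to 6 per library. The lens crystallin gene crybb1 and the rod opsin gene rho were at 3 counts or fewer. The eye field gene rax had 10.6 and 9.16 CPM, of which the S copy held 9.72 CPM on average. The cement gland marker agr2, a disulfide isomerase of the secretory pathway, had 44.0 and 44.4 CPM, while pitx1, another cement gland marker, had 3.38 and 5.13 CPM. The hindbrain marker egr2 had 1.60 and 0.962 CPM. Which cells gave the rax and agr2 counts was not tested.

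Ventral markers were also low, except for sox17a. The globin gene hba1 had 0.355 and 0.401 CPM, hbg1 0.178 and 0 CPM, and the red cell transcription factor gene gata1 0.178 and 0.160 CPM. Heart markers were low too, with 0.817 and 0.892 CPM for nkx2-5 and 0 and 0.160 CPM for the natriuretic peptide gene nppa. The endoderm transcription factor genes sox17a and pdx1 had 15.99 and 12.03 CPM and 1.33 and 1.52 CPM. In these 7 genes, 2 had at least 1 CPM and 1 at least 10 CPM. No head or ventral tissue of this stage was measured here, so whether each marker is already on in its tissue is not known. A low count of a head or ventral marker therefore does not show that its tissue was absent.

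Tissue and process lists, 35 in all, were then summed as a percent of the counts outside ribosomal RNA. Of 648 symbols in the 27 lists written as symbols, 580 matched a gene, and the other 8 lists were gene families found by their names. A sum depends on which genes a list holds and is not a share of cells. Counts of members at 1 or 10 CPM stand against 62.1% and 36.6% of all genes with copies summed. For 100 CPM that share was not computed with copies summed. Counted as single gene models, 1748 of 39128 reached 100 CPM. In bulk RNA, fewer cells of a type and less RNA per cell cannot be told apart. Together the 1109 genes in any list held 18.2% and 17.8% of the counts in control replicates 1 and 2. The 95% Wilson interval of a list's share was at most 0.0249 percentage points wide, which covers counting error only.

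**Figure D2:**
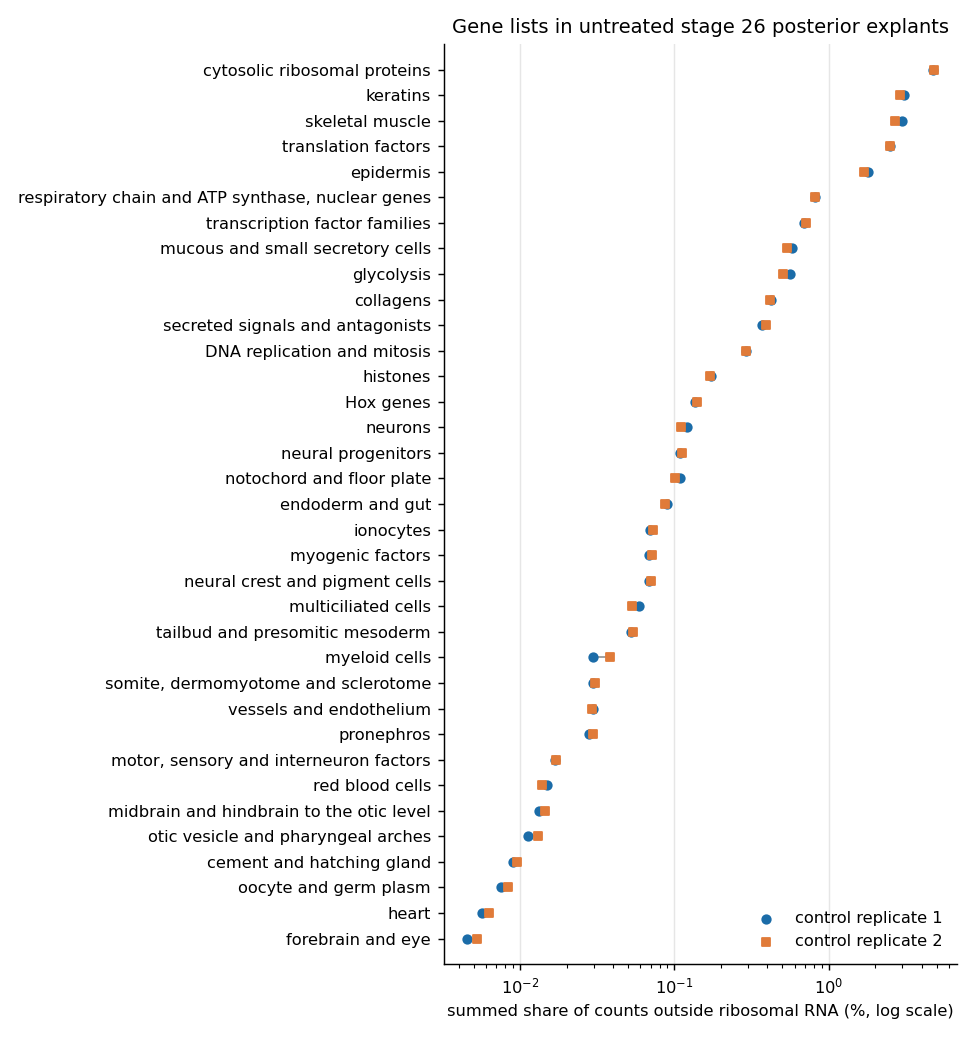
Share of counts outside ribosomal RNA (x axis, percent on a log scale) of 35 gene lists, with control replicate 1 as a blue circle and control replicate 2 as an orange square joined by a line. Cytosolic ribosomal proteins lead with 4.77% and 4.82%, the forebrain and eye list is last with 0.00451% and 0.00524%, and the widest relative gap is that of the myeloid list.

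Skeletal muscle genes held 2.99% and 2.68% of the counts (2.84% ± 0.21), with Wilson intervals of 2.98% to 3.00% and 2.68% to 2.69%. Of 45 matched members, 37 had at least 10 CPM and 28 at least 100 CPM, and ttn and des were among 10 symbols with no match. After myh4, atp2a1 and ckm came the fast myosin light chain genes myl1 (2486 and 2081 CPM) and mylpf (2522 and 1896 CPM) and the sarcomeric actin gene actc1 (2185 and 1973 CPM). The factors that specify muscle were far below the contractile genes in counts. The 11 myogenic factors together held 0.0688% and 0.0711%, and all 11 had at least 10 CPM. Among them the MEF2 family gene mef2d had 184 and 170 CPM, the myogenic regulator myod1 108 and 129 CPM, the six4 homeobox gene 108 and 105 CPM and mef2a 85.2 and 81.6 CPM.

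Early somite, dermomyotome and sclerotome genes held 0.0297% and 0.0304%. The growth factor receptor gene pdgfra had 58.5 and 59.8 CPM, the forkhead gene foxc2 39.8 and 37.0 CPM, the dermomyotome gene pax3 38.3 and 35.9 CPM and the somite bHLH gene tcf15 37.8 and 34.2 CPM. Of 15 matched members, 9 had at least 10 CPM and 2 were under 1 CPM. Lower members were the sclerotome genes pax9, nkx3-2 and pax1, with means of 6.05, 0.885 and 0.756 CPM. The levels of the leading members therefore do not stand for these sclerotome genes. The tissues that gave the counts of pdgfra and pax3 were not tested. The tailbud and presomitic list held 0.0523% and 0.0539%, and 13 of its 25 matched genes had at least 10 CPM. Its leading members were the caudal homeobox gene cdx4 (105 and 90.8 CPM), the Notch ligand gene dll1 (56.5 and 62.9 CPM), the zinc-finger gene sp8 (49.9 and 62.1 CPM) and cdx2 (49.2 and 53.8 CPM). The presomitic mesoderm bHLH gene msgn1 had 31.1 and 28.0 CPM, and the tailbud and notochord T-box gene tbxt 19.4 and 14.99 CPM.

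Notochord and floor plate genes held 0.109% and 0.101%, and 1 gene, the cartilage-type collagen gene col2a1, took 56.3% of that sum on average. It had 603 and 581 CPM. The heparan sulfatase gene sulf1 had 123 and 133 CPM, the matrix gene emilin3 98.3 and 67.7 CPM, and col9a1 70.4 and 55.9 CPM. The midline signal shh had 15.6 and 13.95 CPM. Pronephric genes held 0.0279% and 0.0297%, led by emx2 (34.0 and 44.5 CPM) and by the tubule transporter genes slc5a8.1 (36.0 and 26.4 CPM), slc12a1 (26.3 and 33.3 CPM) and slc4a4 (24.2 and 26.5 CPM). The kidney specification gene pax8 had 10.3 and 12.2 CPM.

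Vessel and endothelial genes held 0.0296% and 0.0290%, with the apelin receptor gene aplnr at 107 and 97.3 CPM, egfl7 at 40.98 and 40.4 CPM, lmo2 at 29.7 and 30.1 CPM and robo4 at 24.4 and 22.5 CPM. The aplnr gene took 34.8% of the vessel sum on average. Of 17 matched vessel genes, 8 had at least 10 CPM and 2 were under 1 CPM. Lower members were kdr, cdh5, tek and pecam1, with means of 4.58, 4.42, 3.29 and 2.11 CPM. The means of tie1 and erg were 0.667 and 0.627 CPM. Myeloid genes held 0.0297% and 0.0380%. Myeloperoxidase mpo had 73.8 and 103 CPM, the chemokine receptor gene cxcr4 53.3 and 56.8 CPM, spib, a transcription factor of early myeloid cells in *Xenopus*, 45.7 and 49.4 CPM, and the NADPH oxidase gene cybb 27.8 and 37.5 CPM. The red blood cell list held 0.0149% and 0.0138%. Its matched globins had at most 1.52 CPM in either library, while genes of the membrane and of heme handling stood higher. The symbols hbb1, hbb2, hemgn, klf1 and tfr2 matched no gene, so this list does not measure them. The anion exchanger slc4a1, which ionocytes also use, had 57.4 and 45.9 CPM, blvrb 26.0 and 22.8 CPM, the heme synthesis gene urod 17.9 and 22.8 CPM and nfe2 18.2 and 17.3 CPM, whereas hbg2 had 0 counts in both libraries. The heart list held 0.00568% and 0.00628%, and its leading members isl1 (15.5 and 14.2 CPM) and popdc2 (11.5 and 12.45 CPM) are also used outside the heart.

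Of the lists for the nervous system, that of progenitor genes held 0.108% and 0.112% and that of neuronal genes 0.121% and 0.111%. The glial and progenitor glutamate transporter gene slc1a3 had 281 and 294 CPM, the intermediate filament genes vim and nes 146 and 167 CPM and 148 and 129 CPM, and the receptor gene notch1 123 and 127 CPM. Which tissues gave the counts of these leading progenitor genes was not tested. Among neuronal genes the tubulin gene tubb2b had 257 and 243 CPM, peripherin prph 99.4 and 85.3 CPM, the adhesion gene ncam1 98.7 and 81.7 CPM and the synaptic vesicle calcium sensor gene syt1 86.5 and 88.7 CPM. The neuronal RNA-binding protein gene elavl3 had 32.0 and 32.2 CPM and the neural plate gene sox2 14.8 and 15.2 CPM. Factors that mark classes of spinal neurons were lower, at 0.0167% and 0.0171% for 24 matched genes, of which 6 had at least 10 CPM. The leading members were the motor neuron gene mnx1 (20.9 and 18.07 CPM) and gata3 (17.3 and 19.1 CPM). Then came sim1 (16.4 and 19.7 CPM) and isl1 (15.5 and 14.2 CPM). The symbols lhx4, pou4f2, ntrk3, evx2, lmx1b, gad1 and slc17a6 matched no gene, so this share leaves them out. Which tissues gave the counts of the leading members was not tested, and isl1 is also in the heart list.

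Neural crest and pigment genes held 0.0686% and 0.0705%, and 15 of the 18 matched had at least 10 CPM. The AP-2 genes tfap2b and tfap2a had 98.4 and 92.7 CPM and 78.25 and 96.2 CPM, the crest factor ets1 71.2 and 79.5 CPM, and the melanosome genes pmel and dct 100.8 and 88.4 CPM and 26.4 and 25.9 CPM. AP-2 genes and ets1 are used in tissues other than the crest as well.

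Among the tissue lists, those of keratins, skeletal muscle and epidermis held the most counts. Keratin genes held 3.08% and 2.88% (2.98% ± 0.14, with Wilson intervals of 3.07% to 3.09% and 2.87% to 2.89%), and the counts sat in few of them. Of 43 keratin genes, 8 had at least 100 CPM and those held 99.6% of the keratin counts in both libraries, while 27 were under 1 CPM and 12 had 0 counts. The 8 were krt7, krt12.4 (5593 and 5108 CPM), krt70 (4015 and 3600 CPM), krt12.2 (2744 and 2465 CPM), krt12.5 (1850 and 2061 CPM), krt8.1 (1489 and 1299 CPM), krt18.1 (837 and 645 CPM) and krt19 (309 and 342 CPM). Those with 0 counts were krt15.1, krt24, krt50, krt54, krt55 and krt57 together with krt78.3, krt78.4, krt78.5, krt78.6, krt78.8 and krt78.9. How well the authors' counting separated reads of near-identical keratin genes is not known. The keratins were found by name, and which tissues gave their counts was not tested.

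The epidermis list, which shares 13 genes with the keratins, held 1.79% and 1.70%. It does not hold krt7 or krt12.2, so its share leaves out the gene with the most counts. The epidermal stem cell factor tp63 had 86.0 and 98.7 CPM. Mucous and small secretory cell genes, of which 8 matched, held 0.580% and 0.538%, nearly all of it in itln1 and otogl2. The symbols muc5ac, muc5b, muc2 and fcgbp matched no gene, so this share does not measure them. The secretory regulator xbp1 had 144 and 164 CPM, galnt3, which adds the first sugar to mucins, 45.4 and 43.5 CPM, and foxa1, a factor of small secretory cells and endoderm, 41.9 and 39.6 CPM. Ionocyte genes held 0.0695% and 0.0726%, with carbonic anhydrase ca2 at 304 and 332 CPM, the proton pump genes atp6v1a, atp6v1b1 and atp6v1c2 at 89.4 and 87.8, 80.2 and 76.8, and 60.2 and 58.5 CPM, and the ionocyte factor foxi1 at 28.2 and 35.1 CPM. The ca2 gene took 44.8% of the ionocyte sum on average, and which cells gave the ca2 and proton pump counts was not tested. Multiciliated cell genes held 0.0590% and 0.0532%. No member took more than 8.58% of that sum on average, and member means ran from 0.511 to 48.1 CPM. Of 33 members, 31 had at least 1 CPM, where 62.1% of all genes with copies summed did. The leading 4 were the tektins tekt2 (54.4 and 41.9 CPM), tekt3 (36.1 and 32.6 CPM) and tekt1 (33.4 and 29.6 CPM) and the outer dynein arm gene dnah9 (31.7 and 28.2 CPM). The master factor of motile cilia, foxj1, had 22.03 and 19.9 CPM.

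Endoderm and gut genes held 0.0900% and 0.0869%, and darmin, a peptidase gene of *Xenopus* endoderm, took 68.9% of that on average, with 626 and 592 CPM. The next members were far below it: cdx2, foxa1 and the RNA-editing cofactor gene a1cf (36.3 and 38.7 CPM). Germ plasm and oocyte genes held 0.00755% and 0.00828%. The germ cell helicase gene ddx4 had 31.4 and 41.6 CPM and tdrd1, ddx25 and gdf9 had 9.42 and 8.07, 6.75 and 6.17, and 4.91 and 4.70 CPM. The oocyte genes bmp15 and velo1 had 0 counts in both libraries.

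The list with the smallest share of all 35 was that of forebrain and eye. Its genes held 0.00451% and 0.00524%, and 0 of 27 had at least 10 CPM. After rax came dlx2 (6.40 and 10.7 CPM), mab21l2 (3.64 and 5.69 CPM) and vsx1 (4.85 and 3.76 CPM), and six6, nkx2-4, foxe3 and bsx had 0 counts. Midbrain and hindbrain genes up to the otic level held 0.0133% and 0.0145%, of which mafb, a hindbrain gene also used in myeloid cells and kidney, took 54.0% on average with 70.1 and 79.9 CPM. The pax2 gene of the midbrain boundary and the kidney had 18.05 and 18.2 CPM. Cement and hatching gland genes held 0.00901% and 0.00952%, of which agr2 took 47.7% on average. The astacin-like protease gene astl2f had 24.96 and 28.2 CPM, ag1 9.24 and 7.94 CPM and tmprss15 0. The symbols he, he1, uvs2, astl2c and astl2d matched no gene, so this share does not measure them. Otic vesicle and pharyngeal arch genes held 0.0112% and 0.0130%, led by msx2 (56.1 and 66.7 CPM) and dlx5 (16.3 and 19.3 CPM), which are also used in fins and limbs, followed by sox2 and fgf10 (5.95 and 7.22 CPM).

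Position on the head-to-tail axis was read from the Hox genes, which held 0.135% and 0.140% of the counts. All 33 Hox genes found by name had at least 1 CPM and 28 had at least 10 CPM, over paralog groups 1 to 13. Among all genes with copies summed, 62.1% and 36.6% reached those levels. Any Hox gene without such a name, among them hoxb3, hoxc4 and hoxb8, is missing from the sums and medians below. The highest was hoxc6, with 239 and 228 CPM, and the next were hoxa9 (93.8 and 110 CPM) and hoxc9 (95.3 and 102 CPM), whose values in the libraries overlap. By summed CPM, groups 1 to 4, which pattern the hindbrain and neck, had 216 and 230 CPM over 10 genes, with a median of 10.97 CPM. Groups 5 to 8 of the anterior trunk had 447 and 456 CPM over 9 genes, with a median of 24.7 CPM. Groups 9 and 10 of the posterior trunk had 456 and 488 CPM over 7 genes, with a median of 66.5 CPM, and groups 11 to 13 of the tail had 234 and 221 CPM over 7 genes, with a median of 24.04 CPM.

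Within the anterior groups the group 3 genes hoxa3 (52.8 and 60.5 CPM) and hoxd3 (57.5 and 54.6 CPM) and hoxd4 (41.9 and 47.4 CPM) stood above hoxb1 (5.81 and 6.01 CPM), hoxd1 (6.93 and 5.69 CPM), hoxa2 (10.8 and 12.8 CPM), hoxb2 (14.5 and 13.2 CPM), hoxc3 (8.35 and 9.94 CPM) and hoxb4 (7.73 and 10.02 CPM). In the anterior trunk groups hoxa7 had 51.9 and 60.3 CPM, hoxc8 34.5 and 32.3 CPM and hoxa5 28.8 and 36.2 CPM, while hoxb5, hoxb6, hoxb7, hoxc5 and hoxd8 had means between 13.8 and 24.7 CPM. In the posterior trunk groups every gene had a mean of at least 41.2 CPM. These were, beside hoxa9 and hoxc9, hoxd10 (71.9 and 70.3 CPM), hoxc10 (63.2 and 69.8 CPM), hoxa10 (42.8 and 53.5 CPM), hoxd9 (44.6 and 45.4 CPM) and hoxb9 (44.7 and 37.6 CPM).

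The tail groups were uneven. The hoxc12 gene had 87.0 and 76.3 CPM and hoxd11 55.1 and 56.9 CPM. The C-cluster gene hoxc13 had 32.0 and 28.8 CPM, above hoxd13 (13.6 and 13.6 CPM) and hoxa13 (6.13 and 6.81 CPM). The group 11 genes hoxa11 (23.8 and 24.3 CPM) and hoxc11 (16.2 and 14.2 CPM) were below hoxd11 in both libraries. Since CPM holds transcript length, these orders are orders of counts.

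**Figure D3:**
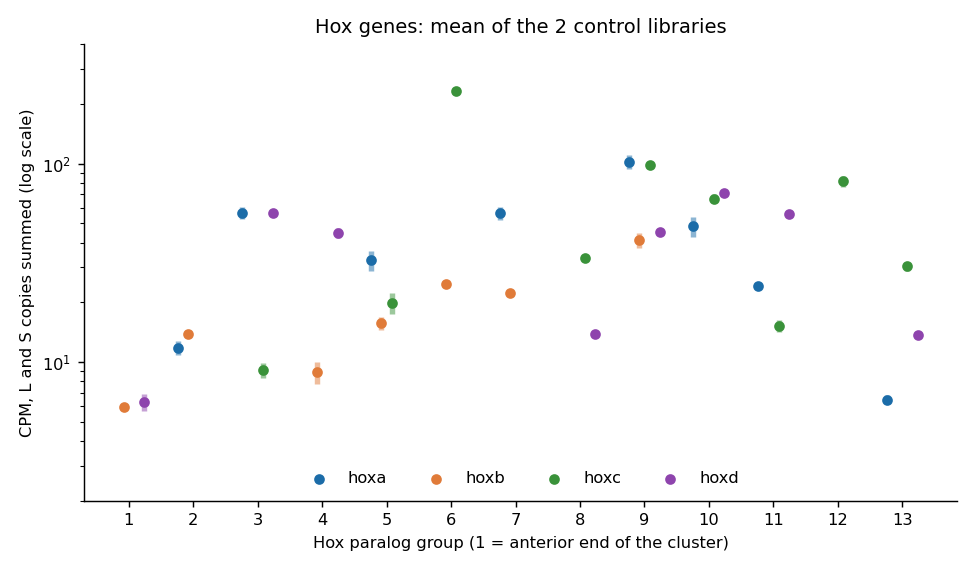
CPM with L and S copies summed (y axis, log scale) of 32 of the 33 Hox genes found by name, by paralog group (x axis, 1 at the anterior end of a cluster), in blue for the hoxa, orange for the hoxb, green for the hoxc and purple for the hoxd cluster; points are means and the short bars run between the 2 control libraries. The hoxc6 gene is the highest at a mean of 233 CPM, and all genes of groups 9 and 10 lie at a mean of 41.2 CPM or more.

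Among the general processes, genes for making protein held the most counts. Cytosolic ribosomal proteins held 4.77% and 4.82% of the counts (4.79% ± 0.04). No member dominated, since the leading member rpsa held 3.46% of the list's sum. Member means ran from 0.218 CPM for rpl3l to 1657 CPM for rpsa. Of 80 genes, 76 had at least 100 CPM. Among the leading members were rpsa (1517 and 1797 CPM), rps20 (1493 and 1598 CPM) and rpl10a (1515 and 1424 CPM). Translation factors held 2.49% and 2.48%, of which eef1a1 took 34.1% on average. The listed symbols eef2 and tpt1 matched no gene, so this share leaves out eef2.1. The hypusine-carrying factor eif5a had 1494 and 1517 CPM, and eef1a1o, the eef1a gene named for the oocyte in *Xenopus*, 1502 and 1354 CPM. Nuclear genes of the respiratory chain and ATP synthase held 0.811% and 0.814%, with the ATP synthase genes atp5mc3, atp5f1b and atp5f1a at 691 and 634, 668 and 612, and 540 and 621 CPM. Glycolysis genes held 0.557% and 0.507%, with the aldolase aldoa (829 and 818 CPM), the enolase eno1 (821 and 681 CPM) and gapdh (802 and 615 CPM) among the leading members.

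Genes of dividing cells held 0.293% and 0.292%, and 33 of 37 had at least 10 CPM. The listed symbol rrm2 matched no gene. The replication helicase gene mcm6.2 (187 and 185 CPM) is not in the list, so this share leaves out its counts. The proliferation antigen mki67 had 264 and 278 CPM, topoisomerase top2a 212 and 220 CPM, the replication clamp pcna 200 and 212 CPM and the helicase subunit mcm2 165 and 154 CPM. Among histones, which held 0.172% and 0.170%, the variants h2az1 (541 and 602 CPM), h3-3b (531 and 435 CPM), h3-5 (197 and 222 CPM) and the model h3c13 (179 and 172 CPM) led. Replication-dependent histone messages end without a poly(A) tail, and how the libraries were selected for poly(A) is not given, so the histone sum was not compared with the other lists.

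Collagens held 0.419% and 0.417%, and 16 of 32 genes had at least 100 CPM. The fibril collagens col2a1, col11a1 (390 and 393 CPM), col5a1 (364 and 330 CPM), col1a1 (269 and 276 CPM), col1a2 (226 and 267 CPM) and col5a2 (203 and 212 CPM) stood beside basement membrane collagens such as col18a1 (318 and 296 CPM) and col4a5 (261 and 239 CPM). The beaded filament collagens col6a5 and col6a1 had 198 and 219 CPM and 147 and 160 CPM.

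Transcription factor families, 267 genes by name, held 0.690% and 0.709%, and 220 of them had at least 1 CPM. The BMP-responsive inhibitor of bHLH factors id3 led, with 338 and 325 CPM. The epidermal grainyhead factors grhl3 and grhl1 had 250 and 243 CPM and 186 and 184 CPM. Then came the Hox cofactor pbx2 (212 and 182 CPM), the Hippo pathway factor tead4 (155 and 160 CPM), klf6 (139 and 139 CPM), foxk2 (140 and 127 CPM), sp1 (124 and 119 CPM), the Notch target hey1 (114 and 124 CPM) and myod1. Members with 0 counts included foxh1.2, nkx2-6, nkx2-4, tfap2d, foxe3, neurod6, pou1f1 and six6.

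The list of secreted signals and antagonists, 140 genes by name, held 0.371% and 0.390%, and 116 had at least 1 CPM. It takes whole families, so membrane-bound members such as efnb2 are in it, and its share is not one of secreted proteins alone. The heparin-binding growth factor gene ptn led with 671 and 696 CPM, and its relative mdk had 283 and 305 CPM. The Wnt antagonist sfrp2 had 174 and 211 CPM, and the chemokine cxcl12, the ligand of cxcr4, 147 and 159 CPM. Among the leading 10 members were also the guidance signals sema6a (177 and 191 CPM), sema6d (118 and 133 CPM), sema3b (122 and 127 CPM), sema3a (112 and 108 CPM) and the ephrin gene efnb2 (95.3 and 83.0 CPM). The protease bmp1, which processes procollagens and cleaves the BMP antagonist chordin, had 84.2 and 85.6 CPM. The genes bmp15, inhbc.1 and igf1 had 0 counts in both libraries.

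The L and S copies of genes were compared over 7149 symbols that have exactly 1 L and 1 S model and together at least 1 CPM. These pairs held 64.3% of the counts. The L copies held 53.8% and 54.1% of the pair counts in control replicates 1 and 2, and the median pair had 55.9% of its counts in L, with quartiles of 40.9% and 71.5%. The L copy was above the S copy in both libraries in 4082 pairs, which is 57.1%, and the S copy was above in 2510. A pair was called L-weighted when L held at least 80% of its counts in both libraries, and S-weighted when S did. There were 1059 L-weighted pairs, 14.8%, and 479 S-weighted pairs, 6.70%. A pair's L share was close between the libraries, with a median absolute difference of 2.77 percentage points. How well the authors' counting told reads of near-identical copies apart is not known.

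**Figure D4:**
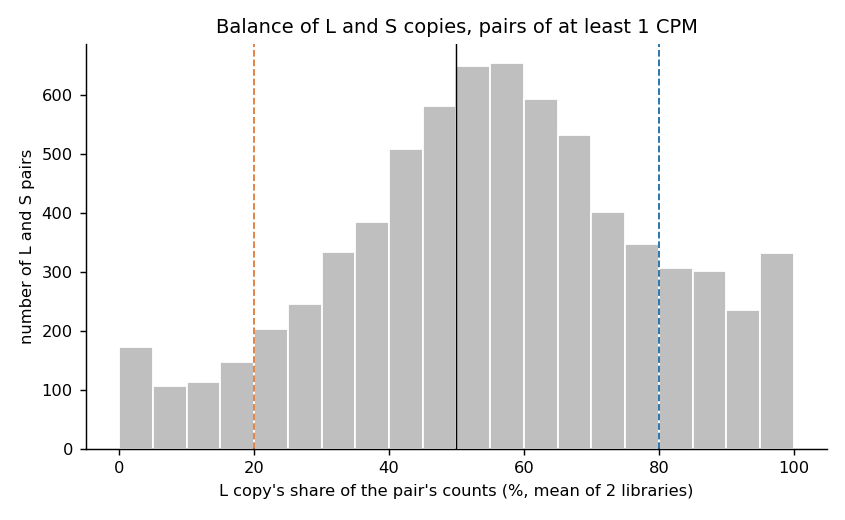
Number of L and S pairs (y axis) by the share of the pair's counts in the L copy (x axis, percent, mean of the 2 control libraries), in bins of 5 percentage points; the solid line is 50% and the dashed lines are the limits for S-weighted pairs (20%, orange) and L-weighted pairs (80%, blue). The bulk of the 7149 pairs lies between the dashed lines, shifted to the L side, with a median of 55.9% and more pairs at the L end than at the S end.

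Among pairs that were neither L- nor S-weighted, the 6 with the most counts are given first, a class chosen for its balance. The pairs ccdc50 and aifm2, with more counts than 5 of these 6, lay almost wholly in 1 copy. In krt7 the L copy held 41.6% and 46.0% of the counts in control replicates 1 and 2, in eef1a1 45.2% and 42.2%, in krt12.4 50.6% and 51.9% and in actb 42.1% and 41.5%. In eef2.1 the L copy held 65.6% and 64.4%, and in cirbp the copies had 2592 and 2446 CPM for L and 3729 and 3600 CPM for S. Of these 6 pairs, 4 had more counts from the S copy in both libraries, and krt12.4 and eef2.1 had more from the L copy.

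The L-weighted pairs with the most counts were, beside ccdc50, ckm, eif5a, p4hb, sdk2 and eef1g. In ckm the L copy had 3212 and 2553 CPM and the S copy 4.62 and 4.65 CPM. In eif5a the copies had 1429 and 1453 CPM for L and 64.3 and 63.7 CPM for S. The protein disulfide isomerase p4hb had 86.0% and 87.8% of its counts in L, the adhesion gene sdk2 98.7% and 98.9%, and the elongation factor subunit eef1g 92.9% and 90.8%. The S-weighted pairs were, beside aifm2, pabpc1, tnnt3, eef1a1o, gapdh and tnnc1. The L copy held 14.8% and 14.3% in pabpc1, 15.9% and 16.8% in the fast troponin T gene tnnt3, and 3.44% and 4.77% in eef1a1o. In gapdh the L copy had 106 and 83.5 CPM and the S copy 696 and 532 CPM, and in the slow and cardiac troponin C gene tnnc1 the L copy had 4.86 and 4.11 CPM and the S copy 594 and 618 CPM. In each of these 12 pairs the same copy led in both libraries by the rule that chose them.

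The split of pairs is given next by gene group. Only 2 of 55 ribosomal protein pairs were L- or S-weighted (3.64%, against 21.5% of all pairs), and L copies held 51.9% and 52.4% of that list's pair counts. In glycolysis, 8 of 14 pairs were weighted, 4 to each side. Besides gapdh, eno1 had means of 644 CPM in L and 107 CPM in S. Skeletal muscle had 7 of 21 weighted pairs, 4 for L and 3 for S. The L copy was above in both libraries in 18 of 22 collagen pairs, 61 of 87 signal pairs and 114 of 188 transcription factor pairs, where all pairs gave 57.1%. Even among collagens there were pairs the other way: col1a1 had a mean of 22.8 CPM in L and 249 CPM in S, and col6a5 2.55 CPM in L and 206 CPM in S, whereas col1a2 had 234 CPM in L and 12.1 CPM in S and col4a5 245 CPM in L and 5.37 CPM in S. The 2 chain genes of type I collagen thus drew most of their counts from different copies. Among keratins, 3 of 14 pairs were L-weighted and 2 S-weighted, and L copies held 41.3% and 44.8% of the counts. In the Hox genes, 2 of 23 pairs were L-weighted and 0 S-weighted, and L held 53.1% and 55.3%. These groups hold few pairs each, and no group was tested against the rest.

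Over all gene models rather than pairs, models on L chromosomes held 57.7% and 57.9% of the counts and those on S chromosomes 42.3% and 42.1%. There were 22698 models on L chromosomes, of which 64.4% had at least 1 CPM, and 16427 on S chromosomes, of which 65.7% did. A total of 4911 symbols had an L model and no S model, and 1754 had an S model and no L model. The suffix of a gene and the letter of its chromosome differed for 109 of 22261 suffixed models (0.490%).

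The 2 pools resembled each other closely, with some structure in where they parted. Over 18513 gene models with a mean of at least 5 CPM, the log2 ratio of control replicate 2 to control replicate 1 had an SD of 0.23, and 365 models (1.97%) were more than 1.5-fold apart. The labels give the pools as separate replicates, and their counts differed by more than sampling noise, with a chi-square per degree of freedom of 3.15. Of genes with copies summed and at least 5 CPM, 45.2% were lower in control replicate 2.

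In some tissue lists most members lay on the same side between the pools. In the myeloid list 10 of 11 members were higher in control replicate 2, with a median log2 ratio of 0.32. In the multiciliated list 24 of 28 members were lower in control replicate 2, with a median of -0.15, in the skeletal muscle list 27 of 38 (median -0.13), in the neuronal list 18 of 26 (median -0.12) and in the glycolysis list 15 of 18 (median -0.09). All 6 members of the otic and arch list that had at least 5 CPM were higher in control replicate 2. The median log2 ratio of single chromosomes also ran from -0.13 on 2S to 0.18 on 4S. The list medians above are over genes with copies summed. Over single gene models they were 0.396 for myeloid, -0.141 for multiciliated cell, -0.147 for neuronal and -0.099 for skeletal muscle genes. The chromosome medians were then taken off these gene models, a step chosen after seeing the data. This gave 0.399, -0.145, -0.149 and -0.087 in the same order, so the step changed these medians little.

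**Figure D5:**
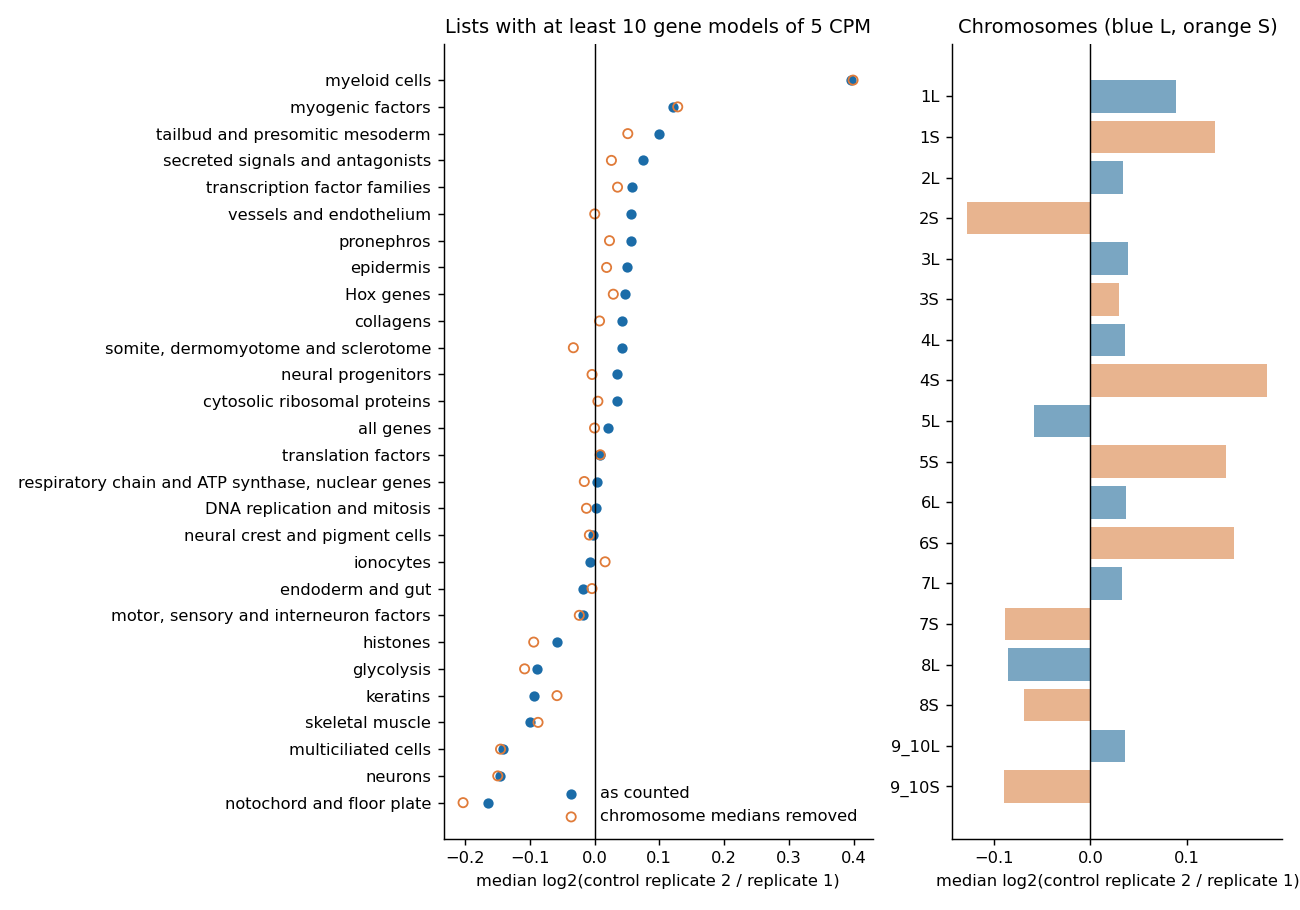
Median log2 ratio of control replicate 2 to control replicate 1 (x axes) for lists with at least 10 gene models of 5 CPM (left; filled blue as counted, open orange with chromosome medians removed) and for each chromosome (right; blue for L, orange for S). The myeloid list stands apart at 0.40, while the chromosomes range from -0.13 to 0.18.

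Among genes of at least 10 CPM, those with the widest ratios toward control replicate 1 were LOC121402973 (22.9 and 8.098 CPM in control replicates 1 and 2), nmral1.S (209 and 96.0 CPM), bco2l.L (96.4 and 46.3 CPM), the immediate early gene fos.S (42.7 and 20.7 CPM), plaat4.L (22.5 and 10.9 CPM) and tmem130.S (17.9 and 8.82 CPM). Toward control replicate 2 they were val.L (5.42 and 20.8 CPM), LOC108713982 (4.44 and 16.4 CPM), LOC121402994 (9.46 and 30.3 CPM), LOC108701709 (8.35 and 19.4 CPM), LOC108701789 (12.2 and 26.9 CPM) and the G protein subunit gene gng7.S (18.2 and 39.2 CPM). The ratios of these 12 genes lay between 2.02-fold and 3.85-fold, and a level given for any of them as a mean of the pools hides that gap.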

How the data were processed

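Per the labels' protocols, RNA was taken with RNAiso and the library kit keeps strand. The authors deposited a single table that gives unscaled estimated counts for each RefSeq transcript and library, and 46.8% and 45.1% of the values in control replicates 1 and 2 lie within 0.001 of a whole number. How reads were aligned and counted, and on which build, is not given in the sources used here. All 80178 transcripts were matched to the RefSeq annotation of Xenopus_laevis v10.1 and summed to 39176 genes. It was used for names and chromosomes. The 48 ribosomal RNA models were left out, no mitochondrially encoded model was found, and CPM was computed from the remaining total. The columns of the 2 picrotoxin libraries were not analysed. The design planned whole counts, and estimated counts took their place without rounding.

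The members and lists were chosen with earlier results of these data known, and a name pattern of the transcription factor list was corrected after the files were seen. Genes named in the text are the 30 with the most counts, the 4 leading members of each list (10 for keratins, collagens, transcription factors and signals), listed genes with 0 counts, all Hox genes, the 6 leading pairs of each class, the 6 widest ratios each way and all markers, of which some are not reported here. The gene not, the copies of eno1, the col1a1, col1a2, col4a5 and col6a5 copies, the aifm2 and ccdc50 transcripts and the genes of the closing part were chosen after their values were seen. The lower members named for the vessel and somite lists were also chosen after their values were seen. TMM factors came from edgeR 4.0.16 and size factors from DESeq2 1.42.0 in R 4.3.3, as alternatives only, on rounded gene sums. Other steps used Python 3.11.15 and pandas 2.3.3. The rule for the pair calls was run on simulated counts with a few set L shares and sampling noise only. Those data hold no reads given to the wrong copy and no further spread between pools. The run therefore does not show how reliable the calls on the real pairs are. Labels give separate pools as replicates, so the SD measures the spread between 2 pools.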

Additional observations from a re-analysis of the deposited data

Results flagged for a closer look

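Ribosomal RNA gene models lie outside the measurements above and held 38.0% of all counts in control replicate 1 and 39.6% in control replicate 2. They are named here because a signal of this size sits in data that no list or pair uses.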

How the results depend on the processing

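No paired analysis was possible because 1 group was described and no groups were compared. TMM scaling, DESeq2 size factors, counts summed over both libraries and a filter of at least 10 counts moved none of the main results they could be run on by more than the spread of the libraries or, for counts of genes and pairs, 1.5-fold, although the filter moved the small lists for heart, neuron classes, oocyte and forebrain (4 of 41 results). Leaving out control replicate 1 or 2 moved no result beyond that either. With 2 libraries, though, neither this step nor summing the counts can move a share further than its SD. These runs therefore do not test how stable the shares are, and they give no SD between libraries. With 1 library left out, list shares were 0.878 to 1.12 times those reported. With ribosomal RNA kept in the total, the top 100 models held 11.3%, and the shares were 1.74% for skeletal muscle, 0.0673% for neural progenitors, 0.0709% for neurons, 1.07% for epidermis, 0.0343% for multiciliated cells, 2.93% for ribosomal proteins, 0.497% for the respiratory chain, 1.82% for keratins and 0.0841% for Hox genes, and the SD of the log2 ratio was 0.21. Without the 10 most abundant gene models they were 13.7%, 2.58%, 0.118%, 0.124% and 1.87% in that order up to epidermis, 5.12% for ribosomal proteins, 0.868% for the respiratory chain, 1.74% for keratins and 0.147% for Hox genes, and L held 54.8% of pair counts. These shifts follow from the smaller or larger total and from the genes left out. Without ccdc50.L and aifm2.S, an alternative chosen after seeing the data, the top 100 held 16.6% and the shares were 0.113% for neural progenitors, 4.92% for ribosomal proteins, 0.834% for the respiratory chain and 0.141% for Hox genes. A floor of 10 CPM left 14579 gene models. With only L and S copies, ribosomal proteins held 4.75%. Pairs of at least 10 CPM gave 310 S-weighted pairs, and a limit of 90% gave 491 L-weighted and 242 S-weighted pairs. Alternatives by transcript or coding length, and the genes with the most counts per kb, were not run, since no lengths were used here. Depth limits genes under 0.266 CPM, and 2 pools limit every SD.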

Other observations

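Some replication and mitosis genes have a numbered relative in the annotation, and the counts sat in 1 of the relatives. These genes were chosen after their values were seen. The replication helicase gene mcm6, for which RefSeq lists the older name mmcm6, had 4.71 and 5.53 CPM in control replicates 1 and 2, while mcm6.2, with the older name zMCM6, had 187 and 185 CPM. In *Xenopus* these names stand for the maternal and the zygotic form of the helicase subunit. The mitotic cyclin gene ccnb1 had 0.0888 and 0.160 CPM and ccnb1.2 had 88.1 and 96.7 CPM. Ribonucleotide reductase gave 9.06 and 7.14 CPM for rrm2.1 and 81.1 and 74.1 CPM for rrm2.2. Another helicase subunit gene, mcm3, had 0 and 0.160 CPM.

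Of the antagonists of the early organizer, chrd.1 had 22.8 and 18.6 CPM and chrd.2 6.65 and 4.54 CPM. Of the midbrain-hindbrain boundary gene gbx2, gbx2.1 had 3.45 and 3.59 CPM and gbx2.2 1.18 and 0.662 CPM. In each pair of relatives the same one led in both pools.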
